A study of Mus musculus with 24 samples.

Results

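Postnatal maturation of the liver was followed here by setting 4 arrays of adult liver against 4 arrays of infant liver, all carrying the time label 0 h, out of 24 arrays in the series. The mice were B6C3F1 hybrids, 1 week old (infant) or 7 weeks old (adult), with 2 males and 2 females at each age and 1 liver RNA per array. The series examined how gene expression after whole-body gamma irradiation from a 137Cs source, 4 Gy at 0.57 Gy/min, depends on age, and the other 16 arrays carry the labels 24 h and 48 h. The 0 h animals served as the reference time, but the labels describe them as irradiated while the protocol speaks of sham irradiation, so 0 h is used only as a name. No genotype, diet or hour of death was given in the sources used here, and nothing states whether pups shared a litter, so p-values measure the spread between these samples.

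In the newborn mouse the liver is still a blood-forming organ: islands of erythroid, granulocytic and megakaryocytic precursors lie among dividing hepatocytes that make fetal serum proteins such as alpha-fetoprotein. Over the weeks to adulthood blood formation moves to bone marrow and spleen, hepatocytes leave the cell cycle, and the enzymes for drug, bile acid, lipid and nitrogen metabolism are switched on, with weaning replacing fat-rich milk by a carbohydrate diet. At puberty a sex difference is added, since the pulsatile male and the more continuous female pattern of growth hormone secretion drive different sets of cytochrome P450, sulfotransferase and pheromone-carrier genes in the liver.

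Levels are log2 fluorescence signal minus the array's own 75th percentile, so a level compares arrays for one probe and not one gene with another. Where 4 levels are listed, the order is male 1, male 2, female 1, female 2. A gene not well above background on any array of the dimmer group has only a bound there, and its fold is given as at least the bright group's mean over the dimmest signal well above background. The 75th percentile lay between 179 and 322 intensity units on the infant arrays and between 171 and 336 on the adult arrays, and 44.8% to 50.3% and 47.6% to 49.8% of probes were well above background. Both ages were thus measured to a like depth of signal. Replicate arrays of one age and sex correlated at 0.987 to 0.991 over the 23115 genes tested, which leave out the dimmest probes. Albumin, the defining hepatocyte product, was bright on all 8 arrays, and Xist and the Y-linked genes Ddx3y and Eif2s3y matched the labelled sex of all 8. Skeletal muscle and adipose markers had a summed signal of 1.39 to 33.3 (in multiples of the array's 75th percentile) on the infant arrays, highest in female 2, and 0.728 to 1.26 on the adult arrays. Tnni2, a fast muscle troponin, lay at -0.19, -0.09, -0.34 and 3.51 in infants, and its age difference did not pass without infant female 2 (-1.89, adjusted p = 0.13).

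The 2 ages differed in most genes measured. Of 23115 genes tested, 16166 (69.9%) passed an adjusted p of 0.05, 10367 of them higher in adults (44.8% of genes tested) and 5799 lower (25.1%), and 3865 rose and 3039 fell by at least 2-fold. For 12276 genes (53.1%) the 4 adult and 4 infant values did not overlap. These shares are the background against which every list below is read. Lists of genes near background at one age lost most of their calls under a filter that asked for signal on all 24 arrays, for example 9 in place of 31 G2 and M phase genes and 5 in place of 23 granulocyte genes. The median gene was 0.27 higher in adults on the log2 scale. With quantile normalization 53.1% of the calls were higher in adults, and with median scaling 53.3%, against 64.1% here, so small rises shared by many genes depended on the scaling. The adult 0 h arrays all lay on 1 slide and the infant arrays on 2 other slides, and age and slide cannot be told apart at 0 h. With slide as a fixed term 14656 of the 16166 genes kept their direction and 9187 were still called in it. Among those described below, the age differences of Apoa1, Csad, Cyp2e1, Ddc, Egfr, Hc and Clec4f no longer passed with that term (adjusted p of 0.11, 0.16, 0.36, 0.18, 0.051, 0.35 and 0.22). In bulk liver, fewer cells of a type and less RNA per cell cannot be told apart either.

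The promoters of Alb, Afp, Cyp2b13, Top2a and Cdc20 are shown because their genes mark the patterns described below: Alb and Afp for a hepatocyte gene that did not pass the test and a neighbouring one that fell, Cyp2b13 for a gene that fell in males and rose in females, and Top2a and Cdc20 for the mitotic genes that fell. Each is the 250 bases before the RefSeq start on build GRCm38.p6, at chr5:90460620-90460869 (plus strand), chr5:90490464-90490713 (plus), chr7:26061245-26061494 (plus), chr11:99024190-99024439 (minus) and chr4:118437344-118437593 (minus). Capitals mark motif letters found on either strand, namely GTTAAT and TTGCNNAA (C/EBP type) in the first 3, and CCAAT and TTTGAA (the core of a CHR element) in Top2a and Cdc20.
Alb: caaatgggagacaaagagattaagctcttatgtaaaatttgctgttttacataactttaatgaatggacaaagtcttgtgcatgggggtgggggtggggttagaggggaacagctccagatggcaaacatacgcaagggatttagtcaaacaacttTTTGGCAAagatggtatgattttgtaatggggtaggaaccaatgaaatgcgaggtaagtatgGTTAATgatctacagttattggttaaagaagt
Afp: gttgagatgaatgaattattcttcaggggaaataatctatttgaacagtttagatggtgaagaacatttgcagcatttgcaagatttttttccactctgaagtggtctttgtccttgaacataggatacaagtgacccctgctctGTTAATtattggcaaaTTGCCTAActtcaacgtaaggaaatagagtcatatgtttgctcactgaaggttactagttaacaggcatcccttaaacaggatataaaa
Cyp2b13: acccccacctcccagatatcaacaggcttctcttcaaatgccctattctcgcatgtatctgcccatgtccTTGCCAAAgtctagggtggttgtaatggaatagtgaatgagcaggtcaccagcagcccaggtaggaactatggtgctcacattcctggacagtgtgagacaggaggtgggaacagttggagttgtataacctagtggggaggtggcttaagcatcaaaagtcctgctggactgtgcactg
Top2a: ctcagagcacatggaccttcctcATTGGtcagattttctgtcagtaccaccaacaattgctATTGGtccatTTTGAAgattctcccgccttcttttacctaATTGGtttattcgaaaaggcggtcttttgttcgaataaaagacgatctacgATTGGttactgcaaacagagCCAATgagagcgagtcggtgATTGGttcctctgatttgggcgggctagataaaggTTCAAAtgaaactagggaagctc
Cdc20: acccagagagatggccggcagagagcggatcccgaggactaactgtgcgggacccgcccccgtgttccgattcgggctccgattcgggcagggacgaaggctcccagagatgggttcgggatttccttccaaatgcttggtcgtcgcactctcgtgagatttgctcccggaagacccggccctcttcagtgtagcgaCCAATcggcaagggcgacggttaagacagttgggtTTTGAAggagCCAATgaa
Both hepatocyte promoters held a GTTAAT and a C/EBP-type match, although Alb did not pass the test and Afp fell 954-fold. The 250-base window of Cyp2b9, a neighbour of Cyp2b13, matched that of Cyp2b13 at 248 of 250 bases (99.2%). Of 32851 promoter windows, 6.43% held GTTAAT, 9.56% the C/EBP letters, 33.8% CCAAT and 16% TTTGAA. In the lists a gene counted if any of its windows held the letters, a more generous measure than the share of single windows. Among G2 and M phase genes with a window, 21 of 26 held CCAAT, 10 of 26 TTTGAA and 0 of 26 the C/EBP letters. GTTAAT stood in 10 of 30 serum carrier genes and in 0 of 25 G1 and S phase genes. With so few genes a count of 0 is not far from shares of 9.56% and 6.43%. The C/EBP letters stood in 8 of 21 female-biased liver genes and in 2 of 21 male-biased ones. These matches are descriptions of the letters and no test of binding.

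The main products of the hepatocyte were already near their adult level at 1 week. Albumin lay at 10.42, 9.89, 9.48 and 9.86 in infants and at 10.51, 10.26, 9.71 and 9.82 in adults (difference 0.16 ± 0.17, SE, adjusted p = 0.4), and the groups overlapped. Of 38 carrier proteins and apolipoproteins 20 were higher and 5 lower, with a median difference of 0.26, close to the 0.27 of all genes, and with quantile normalization 8 were higher and 11 lower. Coagulation factors gave 12 higher and 0 lower of 24, or 7 and 7 with quantile normalization. For the bulk of these abundant serum proteins the direction therefore depended on the scaling.

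A smaller set of secreted proteins switched on. Serpina3k, a serine protease inhibitor, rose from -2.40, -1.73, -1.36 and -0.44 to 10.61, 10.46, 9.39 and 9.74, a 2956-fold rise (adjusted p = 2.6e-14). All 11 major urinary proteins tested, pheromone carriers made by the liver, rose. For the 8 that were well above background on 1 or more infant arrays the difference was 11.11 (Mup21) to 13.90 (Mup17). Mup5 was not well above background on any infant array and was at least 8479-fold higher in adults. The near-identical Mup genes can share probe signal, so the count is not of 11 independent genes. Apoc3, an apolipoprotein that slows lipoprotein clearance, rose 9.97-fold, Apoa4 9.67-fold and F9, coagulation factor IX, 2.73-fold. Of 24 complement and lectin genes 18 rose and 1 fell, with a median of 0.85. C8b, a chain of the membrane attack complex, rose 7.79-fold, Hc, which encodes C5, 1.32-fold (adjusted p = 0.16 with quantile normalization and 0.17 with median scaling), and C3 differed by 0.20 (adjusted p = 0.06). A few carriers went the other way. Serpina7, the thyroxine-binding globulin, fell from 2.31, 2.79, 3.32 and 3.36 to 0.03, -0.85, -1.90 and -1.19 (15.2-fold, adjusted p = 2.8e-08), with no overlap between the ages. Itih2, a heavy chain of the inter-alpha-trypsin inhibitors, was 2.54-fold lower, and Apoa1, the main protein of HDL, 1.67-fold lower.

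**Figure D1:**
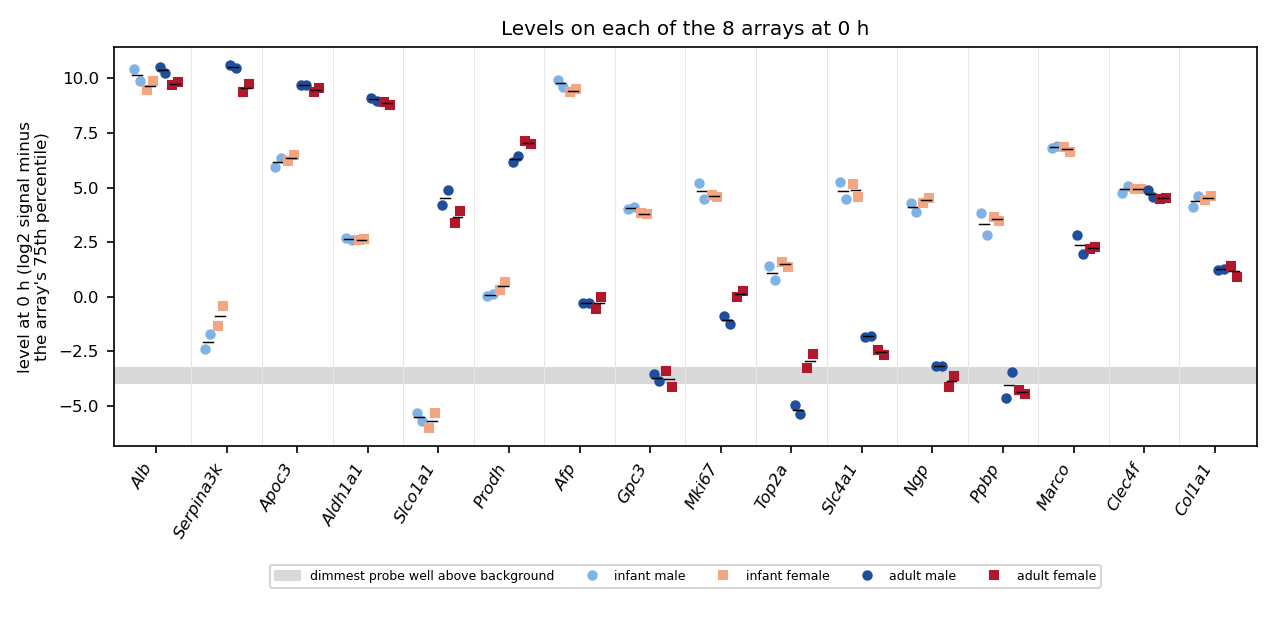
Levels of 16 genes on each of the 8 arrays at 0 h, in log2 signal minus the array's 75th percentile, with a point per array, a short line at each pair's mean and a grey band spanning the dimmest probe well above background on the 8 arrays. Alb overlaps between the ages, Serpina3k to Prodh lie higher on all adult arrays, and Afp to Marco and Col1a1 lie lower on all of them.

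Enzymes that handle drugs and other foreign compounds rose as groups. Of 47 conjugation enzymes, which attach glucuronate, sulfate, glutathione, acetyl or methyl groups, 40 rose and 5 fell (median 1.62, or 1.5 with genes not well above background in infants set at their bound). Of 37 CYP1 and CYP2 oxidases 28 rose and 6 fell (median 1.55), and of 27 flavin monooxygenases, alcohol and aldehyde dehydrogenases and carboxylesterases 22 rose and 2 fell (1 when any of 5 single arrays was left out). Aldh1a1, a retinaldehyde dehydrogenase, went from 2.67, 2.59, 2.58 and 2.62 to 9.12, 8.97, 8.92 and 8.79, a 80.5-fold rise (difference 6.33 ± 0.08, adjusted p = 1.2e-16). The adult and infant arrays lay far apart against the spread within each age.
Ces1f, a carboxylesterase, rose 46.5-fold and Nnmt, which methylates nicotinamide, 102-fold, from -2.78, -2.39, -2.29 and -2.04 to 5.01, 3.50, 4.34 and 4.36. Cyp2f2, a periportal P450, rose 14.3-fold, Cyp2c38 47.6-fold and Cyp1a2, which oxidises caffeine and arylamines, 4.43-fold. Cyp2e1, which oxidises ethanol, had begun earlier: it was bright in infants and 1.43-fold higher in adults (adjusted p = 1.2e-05). Mgst2, a microsomal glutathione transferase, ran against its list, from 2.81, 3.53, 3.46 and 3.46 down to -3.51, -5.39, -3.08 and -3.61, and was well above background on 1 of 4 adult arrays. Cyp2a22 also fell, to -4.54, -3.42, 0.63 and -0.35 from 1.47 to 2.17, with neither adult male well above background.

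Uptake and bile acid genes rose with them. Of 30 liver transporters 20 rose and 5 fell. Slco1a1, an organic anion uptake carrier, was not well above background on any infant array (-5.34, -5.71, -6.03 and -5.34) and lay at 4.19, 4.88, 3.36 and 3.95 in adults, at least 200-fold higher. Slco2b1, of the same family, rose 75.5-fold and Abcb11, the bile salt export pump, 2.37-fold. Of 17 bile acid synthesis genes 14 rose and 0 fell. Cyp27a1, the sterol 27-hydroxylase of the acidic pathway, rose 23.6-fold and Baat, which joins bile acids to taurine and glycine, 17.5-fold. Cyp7a1, the rate-limiting enzyme of the classic pathway, behaved differently in the sexes: 0.38 to 1.65 in infants, 1.85 and 2.33 in adult males and 5.94 and 4.62 in adult females. Its age difference passed in females (4.46, adjusted p = 1.2e-05) and not in males (0.56, adjusted p = 0.41), and the 2 differed by -3.90 (adjusted p = 0.0073, but 0.056 when only the 8 arrays of 0 h were fitted).

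Genes of nitrogen metabolism rose as well. Of 10 urea cycle genes 9 rose and 0 fell: Cps1, the entry enzyme, rose 3.2-fold, Otc 3.25-fold and Arg1, which releases urea, 3.94-fold, and Glul, the pericentral glutamine synthetase, 3.82-fold. Of 41 amino acid breakdown genes 33 rose and 2 fell. Prodh, the proline oxidase, moved from 0.03, 0.14, 0.32 and 0.69 to 6.16, 6.44, 7.13 and 6.98 (83.3-fold, adjusted p = 5.9e-15), and Gpt2, the mitochondrial alanine aminotransferase, rose 19.8-fold. Betaine-homocysteine methyltransferase, Bhmt, was already at 9.60 to 9.86 in infants and at 9.64 to 10.21 in adults (adjusted p = 0.053). The 2 members that fell were Prodh2, a hydroxyproline dehydrogenase, 2.32-fold, and Csad, which makes the taurine precursor hypotaurine, 2.46-fold. Asns, asparagine synthetase, a biosynthetic gene of the endoplasmic reticulum and amino acid stress list, fell from 4.28, 4.21, 4.25 and 4.18 to 3.0 and 2.23 in adult males and -1.64 and -1.31 in adult females.

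Genes of glucose and lipid use moved in both directions. Among isozymes used by other tissues, Hk1, a hexokinase, fell 5.07-fold, Pkm, the non-hepatic pyruvate kinase, 5.41-fold, and Slc2a3, a high-affinity glucose carrier, was not well above background on any adult array and at least 16.1-fold lower. Of that list of 17 the count was 5 higher and 8 lower. Of 20 genes of glucose output and glycogen 12 rose and 4 fell, among the latter Galk1, which phosphorylates milk-derived galactose (4.61-fold lower), and G6pc, the last enzyme of glucose release. G6pc was 6.5-fold lower with age in females and 1.23-fold lower in males, at 7.15 and 7.47 in adult males and 4.31 and 6.06 in adult females. Pck1, the entry enzyme of gluconeogenesis, lay at 8.31 to 8.83 in infants and 8.26 to 8.85 in adults (adjusted p = 0.92, and -0.01 for the difference, against -0.32 with adjusted p = 0.016 under quantile normalization).
Lipid synthesis rose: 15 of 19 fatty acid synthesis genes rose and 2 fell (4 with quantile normalization, and 1 when any of 6 single arrays was left out), and 16 of 26 cholesterol synthesis genes rose and 0 fell. Thrsp, a lipogenic nuclear protein, rose from -2.66, -2.74, -2.69 and -2.48 to 5.14, 4.70, 6.43 and 5.57 (276-fold). Acacb, an acetyl-CoA carboxylase, rose 16.8-fold and Me1, the NADPH-forming malic enzyme, 7.68-fold, while Pnpla3, a lipase-like lipid droplet protein, was 2.72-fold lower and measured on 2 of 4 adult arrays. In the sterol pathway Acat2 rose 2.69-fold and Idi1 2.29-fold.
Fatty acid oxidation did not move as a group, with 9 of 31 higher and 11 lower (2 and 15 with quantile normalization, 3 and 6 with slide as a fixed term) and a median of 0.03. Pdk4, the kinase that shuts pyruvate dehydrogenase during fasting and fat use, fell from 2.34, 2.37, 2.76 and 3.31 to -0.44, -0.47, -0.71 and -0.32 (9.05-fold, adjusted p = 2.1e-07). Bdh1, a ketone body dehydrogenase, fell 2.36-fold and Cpt1a, the gate of mitochondrial fat import, 1.33-fold, although the Cpt1a difference changed sign (-0.41 to 0.30) with slide as a fixed term.

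**Figure D2:**
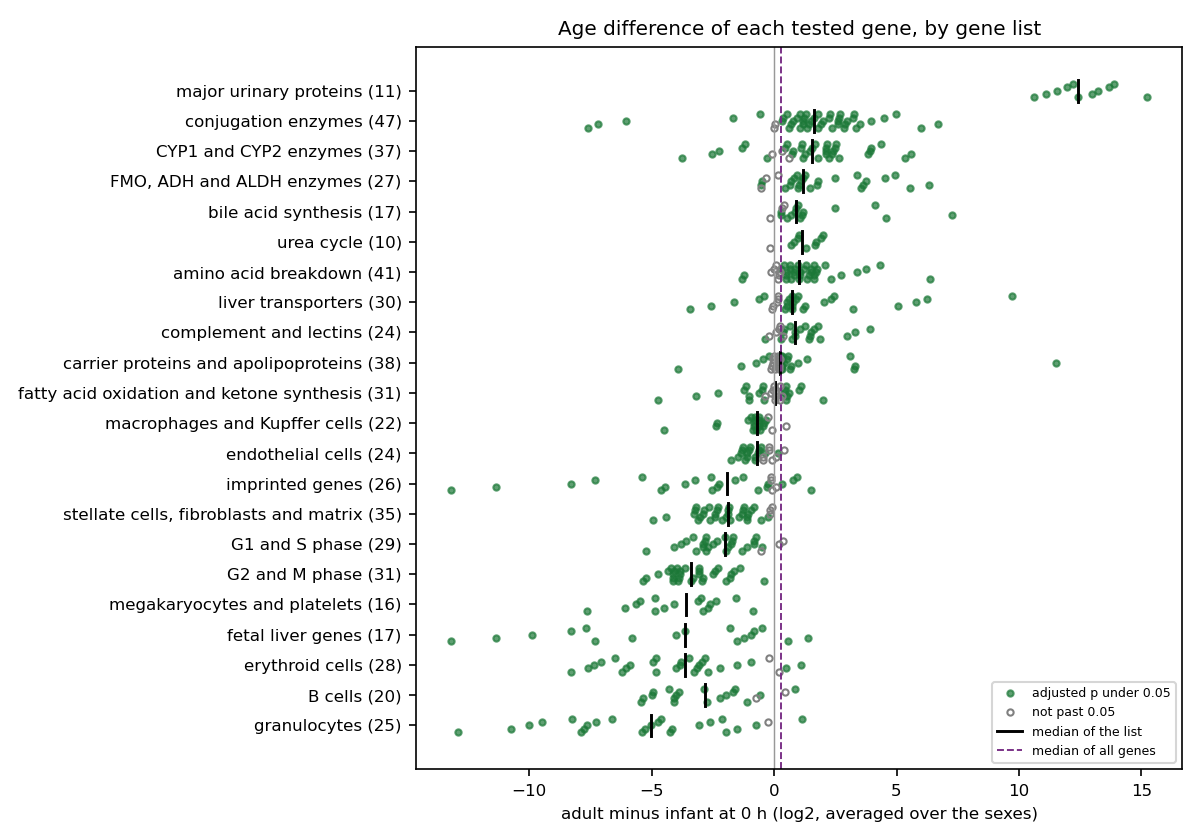
Adult minus infant difference at 0 h (log2, averaged over the sexes) for each tested gene of 22 gene lists, with the number tested in brackets, filled points past an adjusted p of 0.05, a bar at each list's median and a dashed line at the median of all genes, 0.27. Major urinary proteins stand farthest right at a median of 12.4 and granulocyte genes farthest left at -5.04.

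Iron, growth and regulatory genes moved in both directions. Tfrc, the transferrin receptor of iron-hungry and dividing cells, fell from 2.92, 2.65, 3.33 and 3.14 to -0.09, -0.58, -0.02 and -1.09 (11-fold), and Hmox1, heme oxygenase, fell 4.51-fold, while Fth1, a ferritin chain, rose 2.02-fold. Hamp2, a hepcidin paralogue, lay at 0.61, 0.64, -1.74 and -0.98 in infants, 4.51 and 5.51 in adult males and 9.21 and 8.72 in adult females. In the growth hormone and IGF list 7 rose and 7 fell of 17. Igf1, the postnatal growth factor, rose 3.57-fold and the growth hormone receptor Ghr 2.22-fold. Igf1r fell 3.95-fold and Igfbp1, a binding protein raised in fasting and early life, fell from 9.49, 9.40, 9.42 and 9.67 to 7.11, 6.21, 4.13 and 5.55 (13.4-fold, adjusted p = 4e-06). Egfr rose 7.09-fold and Dio1, which activates thyroid hormone, 5.59-fold. Of 28 liver transcription factors 16 rose and 4 fell (0 to 6 fell under other settings, and 1 without infant female 1 or without adult male 2), with a median of 0.50: Hnf4a rose 2.01-fold and Cebpa 2.14-fold, and Klf15, a glucocorticoid-responsive regulator of amino acid use, 4.2-fold. Onecut1, an early hepatocyte factor, ranged from -3.98 to 0.54 among adults and did not pass (adjusted p = 0.63). Pax2, a kidney developmental factor, was among the 12 largest rises of genes with a symbol. It went from -4.15, -5.57, -5.6 and -4.95 (not well above background) to 7.61, 7.42, 5.6 and 6.07, at least 1195-fold. These are signals of its brightest probe, and whether that probe reports Pax2 alone was not tested.

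Fetal liver genes fell, with a median difference larger than the rise of the drug-metabolism lists. Afp, the fetal counterpart of albumin, went from 9.93, 9.63, 9.38 and 9.51 to -0.28, -0.30, -0.56 and 0.00 (954-fold lower, difference -9.90 ± 0.30, adjusted p = 2.9e-12). It remained well above background on all 4 adult arrays. Of 17 fetal liver genes 15 fell and 2 rose (median -3.63). Gpc3, an oncofetal cell-surface proteoglycan, was at 3.77 to 4.09 in infants and not well above background in adults, at least 171-fold lower, and Igf2bp3, an oncofetal RNA-binding protein, fell 16.2-fold but was measured on all adult arrays. The 2 that rose were Sall4, 2.62-fold, and Lin28a, 1.5-fold (adjusted p = 0.01, and 0.089 with median scaling), both from low levels (-1.54 to -1.28 and -1.88 to -1.29 in infants). Imprinted genes, which are expressed from 1 parental copy and control fetal growth, gave 18 lower and 4 higher of 26 (median -1.92, or -1.39 with bounds). Peg3 was at least 85.3-fold lower and Mest 21.9-fold lower, while Ddc, dopa decarboxylase, rose 2.87-fold.

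Every tested mitotic gene was lower in adults, 31 of 31 in the G2 and M phase list (median -3.39, or -3.09 with bounds), and 26 of 29 G1 and S phase genes were lower and 0 higher. Mki67, the standard proliferation marker, fell from 5.23, 4.48, 4.67 and 4.57 to -0.88, -1.27, -0.03 and 0.25 (37.3-fold, adjusted p = 2.8e-10). Uhrf1, which maintains DNA methylation at replication forks, fell 38.1-fold, the helicase subunit Mcm5 13.9-fold and Pcna 2.15-fold. Top2a, the mitotic topoisomerase whose promoter is shown above, went from 1.42, 0.77, 1.57 and 1.37 to -4.96 and -5.39 in adult males, neither well above background, and -3.26 and -2.60 in adult females. Cdc20, an activator of the anaphase ubiquitin ligase, went from 3.48 to 3.76 in infants to 0.15 and -1.26 in adult males and 1.42 and 1.61 in adult females. The adult females had more of both transcripts than the adult males, and 19 of 31 G2 and M phase genes were higher in adult females than in adult males and 0 lower, against 13.1% of all genes higher in females. For Cdc20 the age difference was no longer past 0.05 with slide as a fixed term (-0.31, adjusted p = 0.72). Wee1, a mitotic inhibitor kinase that the clock also drives, is described with the clock genes. The CDK inhibitor Cdkn1b lay at 2.64 to 2.78 in infants and 2.42 to 2.93 in adults (adjusted p = 0.78).

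Transcripts of blood-forming cells fell, with medians of -2.24 to -5.04 (-2.24 to -4.09 with bounds) for erythroid, granulocyte, megakaryocyte and progenitor markers. Of 28 erythroid markers 24 fell and 2 rose (median -3.64, or -3.01 with bounds). In the authors' value table, which holds 21123 of the 23115 genes tested, 13 were lower. All 14845 age calls on genes held there passed again in the same direction, so the calls lost are of genes it lacks. The summed signal of the erythroid markers, in multiples of the array's 75th percentile, went from 2810 to 3497 in infants to 775 to 1597 in adults. Slc4a1, the red cell anion exchanger, fell from 5.26, 4.46, 5.18 and 4.56 to -1.84, -1.79, -2.43 and -2.67 (133-fold), and the blood group genes Rhd and Kel were not well above background in adults, at least 74.9-fold and 40.3-fold lower. Alas2, an erythroid enzyme of heme synthesis that is also on the male-biased list, did not follow. It lay at 5.0, 4.73, 5.29 and 4.79 in infants, 5.54 and 6.03 in adult males and 3.49 and 3.90 in adult females. Car1, a red cell carbonic anhydrase, rose 2.17-fold. Of 25 granulocyte markers 23 fell (13 in the authors' value table, which lacks some of them) and 1 rose (0 without adult male 1). Their summed signal went from 858 to 1161 in infants to 19.4 to 40.5 in adults. Ngp, a granule protein of neutrophil precursors, was at least 199-fold lower. S100a8, a subunit of calprotectin, fell from 6.68, 6.37, 6.56 and 6.93 to 0.10, -2.07, -2.20 and -2.31 (305-fold), highest among adults in male 1. All 16 megakaryocyte and platelet markers fell, Ppbp, a platelet chemokine, at least 126-fold, and 12 of 14 stem and progenitor genes fell, Myb at least 29.4-fold. B cell markers gave 17 lower (11 in the authors' value table, which lacks some of them) and 1 higher of 20. Cd79b, a chain of the B cell receptor, lay at 2.95 to 3.52 in infants, -1.90 and -1.52 in adult males and -0.11 and -0.29 in adult females. T and NK markers gave 15 lower and 3 higher of 22 (1 higher without infant female 1). Cd3e, of the T cell receptor complex, differed by 0.23 (adjusted p = 0.15) and Zap70, its kinase, rose from 0.39, 0.13, 0.29 and 0.22 to 3.35, 3.71, 4.67 and 4.85 (14.8-fold), against its list. Erythroid, granulocyte and other blood markers thus moved with age alongside the proliferation genes and Tfrc, which dividing blood precursors also express, and their part in those results was not tested.

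Markers of resident cell types fell by smaller medians, -0.58 to -1.90. Of 22 macrophage and Kupffer cell markers 19 fell (8 with slide as a fixed term) and 0 rose, with a median of -0.69, and their summed signal went from 342 to 436 in infants to 170 to 221 in adults. Clec4f, which defines Kupffer cells, was 1.24-fold lower (adjusted p = 0.011, but 0.059 without adult male 2 and 0.057 without infant male 2), and Cd5l, which they secrete, differed by -0.24 (adjusted p = 0.16). Further from the list's median, Marco, a scavenger receptor, fell from 6.79, 6.91, 6.87 and 6.62 to 2.81, 1.96, 2.20 and 2.25 (22.5-fold, adjusted p = 6e-10), and Cx3cr1, a chemokine receptor of monocytes, fell 5.18-fold. Of 24 endothelial markers 16 fell (10 with slide as a fixed term) and 1 rose (median -0.71): Vwf, von Willebrand factor, fell 3.39-fold, Stab2, a sinusoidal scavenger receptor, 1.44-fold (adjusted p = 0.82 with slide as a fixed term), and Clec4g, a sinusoidal lectin, differed by 0.39 (adjusted p = 0.057). Of 35 genes of stellate cells, fibroblasts and matrix 32 fell and 0 rose (median -1.90). Col1a1, fibrillar collagen, went from 4.12, 4.63, 4.43 and 4.60 to 1.21, 1.29, 1.42 and 0.91 (9.43-fold), Eln, elastin, fell 31.1-fold with 1 of 4 adult arrays well above background, and Acta2, smooth muscle actin, 7.34-fold. Lrat, which stores retinol in stellate cells, lay at 0.12 to 0.82 in infants and -0.09 to 0.80 in adults (adjusted p = 0.14). Krt19, a bile duct keratin, fell 3.08-fold. Of 17 antigen presentation genes 8 were higher and 2 lower (1 without infant female 2, adult male 1 or adult female 2), near the share over all genes, with a median of 0.09. H2-K1, an MHC class I chain, rose 4-fold and its partner B2m 2.13-fold. Ifi27, an interferon-stimulated gene, rose 5.88-fold while another, Rsad2, fell 2.96-fold. Pnliprp1, a pancreatic lipase-related protein, fell from 3.77, 3.71, 3.69 and 4.23 to -5.33, -4.91, -3.75 and -3.52 (adjusted p = 2.7e-13, with 1 of 4 adult arrays well above background), and Ctrb1, a pancreatic protease, rose 3.57-fold.

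The age difference itself depended on sex for 3082 genes (13.3%), 1566 with the male adult level relatively higher (6.77%) and 1516 with it relatively lower (6.56%). In adults 2152 genes were higher in males (9.31%) and 3037 in females (13.1%), while in infants 1291 genes differed between the sexes (5.59%). That infant count is uncertain, since infant males and infant females lay on different slides and it fell to 5 when only the 8 arrays of 0 h were fitted, where the adult count was 1726 and the count of 3082 was 479. The count of 3082 was 1556 without infant female 1 and 1963 without adult female 2. The 4 adult arrays shared 1 slide. Of the adult sex calls 41.5% were higher in males, against 57.8% with normexp background correction and 12.7% with median scaling, with which the median gene lay at -0.24 in place of 0.04. Of the infant calls 46.2% were higher in males (57.4% and 84.4%), and of the calls on the difference between the sexes 50.8% had the male level higher (17.1% with median scaling).

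Genes known as female-biased in adult liver were for the most part well above background in infants of both sexes and lower in adult males. Of 31 such genes, 22 were lower in adult than infant males and 2 higher (background 22.5% and 40.0%), whereas in females 4 were lower and 15 higher (background 21.2% and 36.4%). Of the 22 that fell in males, 4 also fell in females, 7 rose and 11 did not pass. In adults 30 of 31 were higher in females (background 13.1%), and in infants 1 was higher in females and 1 in males (5.59% either way). For 28 of 31 the interaction passed with the male change lower (background 6.56%). The list was chosen for its adult sex bias, so the adult difference describes the choice. As the infant sexes hardly differed, a male change lower than the female change, as in the 28 of 31, describes it too. The list is named for the adult bias and not for the infant levels, but it was written with earlier results of these data known. Whether males fell or females rose is therefore described here and was not tested apart from that choice.

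Sult2a1, a sulfotransferase for bile acids and steroids, shows the pattern. It lay at 6.75 and 6.75 in infant males and 7.14 and 7.08 in infant females, at -5.32 and -5.42 in adult males, neither well above background, and at 5.24 and 2.73 in adult females. Adult males were at least 1090-fold below infant males (adjusted p = 1.4e-09), and the age difference differed between the sexes (interaction adjusted p = 5.2e-05). The gene was thus measured in infant males, infant females and adult females, and not in adult males. Sult2a2 repeated it, at 6.25 and 6.04, 6.40 and 6.37, -5.47 and -5.59 and 6.77 and 5.14 in the same order of groups, with adult males at least 719-fold below infant males. Sult2a family members are similar in sequence and may share probe signal.
Among P450s, Cyp3a44 lay at 5.48 and 5.29, 5.38 and 5.54, -2.02 and -3.08 and 6.17 and 6.0. Its level did not change detectably with age in females (0.63, adjusted p = 0.16) and fell by 7.94 on the log2 scale in males. Cyp4a14, a fatty acid hydroxylase, likewise lay at 8.06 to 8.40 in infants, 0.19 and -0.79 in adult males and 6.86 and 7.82 in adult females (interaction -7.72, adjusted p = 0.00042). Cyp2b13, whose promoter is shown above, moved both ways: from 2.21 and 2.77 in infant males to -4.75 and -5.67 in adult males, and from 3.02 and 3.23 in infant females up to 6.72 and 5.92 in adult females. Its adult sex difference was at least 814-fold (adjusted p = 5.9e-11). Its neighbour Cyp2b9 fell by 6.38 in males, where 1 of 2 adult arrays was well above background, and rose by 1.35 in females (adjusted p = 0.039), and Cyp2b10, the phenobarbital-inducible member, fell by 3.88 in males and rose by 1.28 in females. The 3 Cyp2b genes are near-identical in parts, and signal may be shared among their probes.
Outside metabolism the pattern held for Cux2, a transcription factor of female liver, at -0.26 to -0.01 in infants of both sexes, -5.40 and -5.54 in adult males and 0.76 and -0.75 in adult females. It also held for Slc22a27, an organic anion carrier, at least 29.2-fold lower in adult than infant males and at 0.15 (adjusted p = 0.68) between the ages in females. Hao2, a peroxisomal hydroxyacid oxidase, and Prom1, prominin, fell in both sexes but further in males: Hao2 fell by 2.43 on the log2 scale in females and was at least 148-fold lower in males, and Prom1 fell by 1.87 in females and fell by 6.0 in males.

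In other female-biased genes the infant level lay nearer to that of adult males. Sult3a1, a sulfotransferase, was not well above background in infants (-5.28, -5.69, -6.02 and -5.53) and adult males (-4.86 and -4.87) and at 3.70 and 3.40 in adult females, at least 150-fold above infant females. A1bg, a serum glycoprotein, repeated this, at 1.33 and 2.02 in adult females and not well above background elsewhere, at least 40.9-fold above infant females. Slc22a26 fell in males and rose in females (by 4.96), and Cyp3a41b lay at 3.20 and 3.71 in adult males against 3.90 and 3.80 in infant males, and rose in females from 4.37 and 4.14 to 7.37 and 6.99.

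Male-biased genes rose in both sexes. This list too was chosen for its adult sex bias, so the adult difference and a larger rise in males describe the choice. Of 28, 26 rose in males and 1 fell (background 40.0% and 22.5%), and in females 22 rose and 2 fell (background 36.4% and 21.2%). In adults 23 were higher in males and 1 in females (background 9.31% and 13.1%), and in infants 0 and 1 (5.59% either way). For 21 the interaction passed with the male rise larger (background 6.77%). Elovl3, a fatty acid elongase, was not well above background on any infant array (-5.19, -5.61, -5.92 and -5.43) and lay at 5.72 and 5.89 in adult males and -0.70 and 0.08 in adult females. That is at least 596-fold above infant males and at least 10.3-fold above infant females. Cyp4a12a, a testosterone-dependent fatty acid hydroxylase, rose from -4.37 and -4.62 to 6.61 and 7.16 in males and from -3.79 and -4.50 to 0.81 and 2.07 in females. Cyp7b1, an oxysterol hydroxylase, rose by 8.92 in males and 5.58 in females (interaction 3.34, adjusted p = 4.9e-06), and Hsd3b5, a steroid reductase, by 9.76 and 6.07 (interaction adjusted p = 0.062 when only the 8 arrays of 0 h were fitted). C6, a terminal complement component, and Gstp1, a glutathione transferase, rose mainly in males: C6 by 5.48 against 1.12 in females, and Gstp1 by 3.93 against 0.79. Even these 2 rises passed in females (adjusted p = 0.00023 and 7.1e-06).

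**Figure D3:**
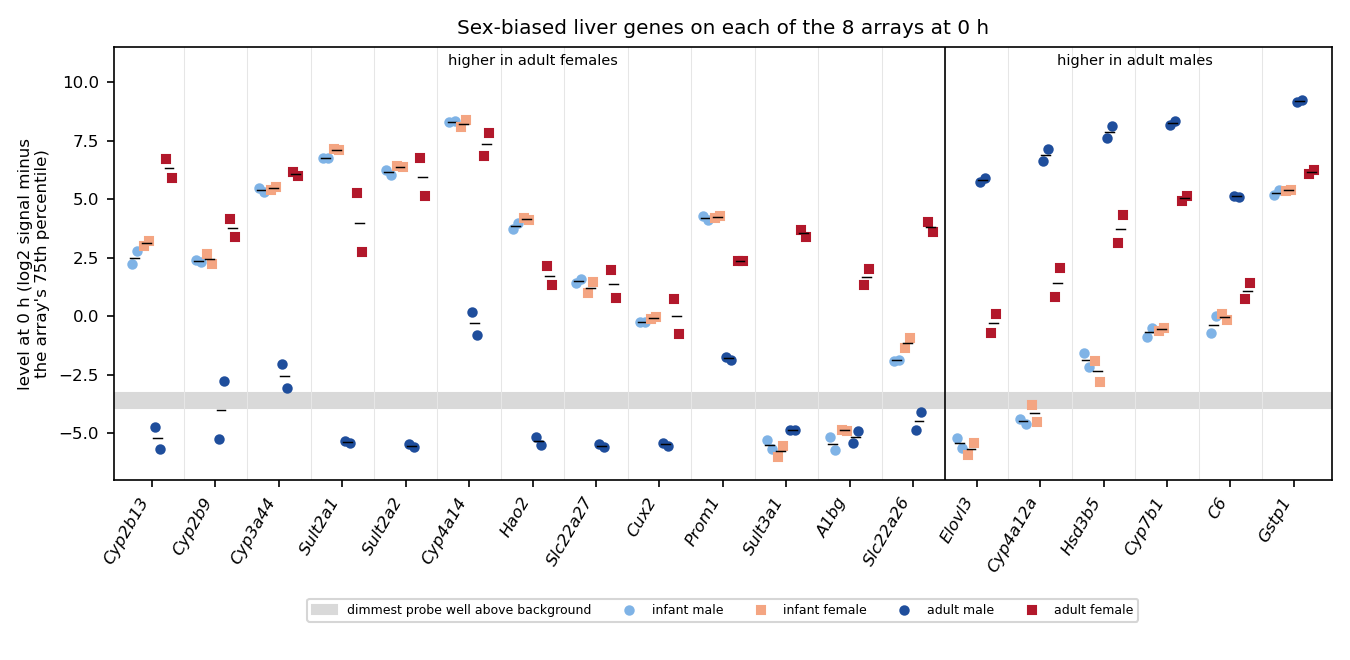
Levels of 19 sex-biased liver genes on each of the 8 arrays at 0 h (log2 signal minus the array's 75th percentile), with a point per array, a short line at each pair's mean and a grey band at the dimmest probe well above background. The 13 genes at the left are higher in adult females than in adult males, the infant level being nearer to that of adult females in the first 10 and to that of adult males in the next 3, and the last 6 are highest in adult males.

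**Figure D4:**
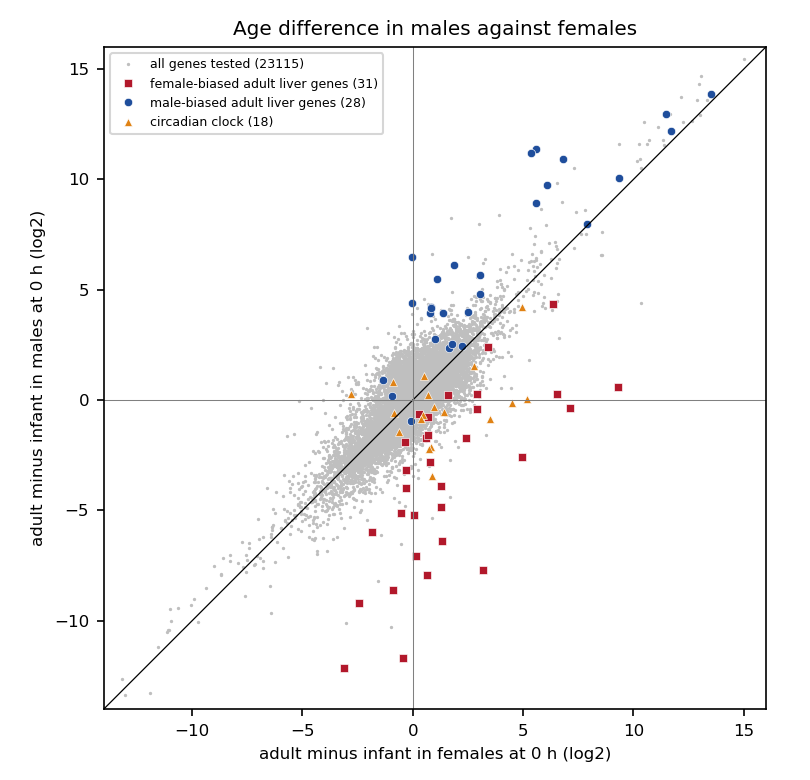
Adult minus infant difference in males (vertical, log2) against that in females (horizontal, log2) at 0 h, a point per gene, grey for all 23115 genes and coloured for 3 lists, with the line of equal change. Female-biased genes lie below the line, 22 of 31 having fallen in males, and male-biased genes mostly above it. Both lists were chosen for their adult sex bias, so the side of the line largely describes the choice.

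The adult sexes also differed at 0 h in lists that are not named for a sex bias. These lists too were written with earlier results of these data known. Of 18 circadian clock genes 12 were higher in adult females (13.1% of all genes) and 3 in adult males (9.31%). In infants 0 of 18 differed, where 5.59% of all genes did. Dbp, an output gene of the clock, lay at 2.39 to 2.91 in infants, 2.85 and 2.06 in adult males and 7.29 and 7.16 in adult females. Arntl, which peaks opposite to it, lay at 1.83 and 1.84 in adult males and -0.84 and -0.52 in adult females. Usp2 and Wee1, also clock-driven, were 19.5-fold and 9.59-fold higher in adult females. The 2 adult male arrays were thus alike, and unlike the 2 female arrays, in clock genes. Of 26 acute phase genes 8 were higher in adult males, against 9.31% of all genes, and 0 in adult females. Saa1, serum amyloid A, lay at 1.16 to 2.06 in infants, 10.50 and 7.86 in adult males and 4.92 and 4.97 in adult females, and Lcn2, lipocalin, at 8.84, 2.72, 2.48 and 3.17 in the 4 adults, high in male 1 alone. Cdkn1a, the p53-responsive CDK inhibitor p21, lay at 2.24 and 0.41 in adult males and -3.28 and -3.21 in adult females, against 1.29 to 2.51 in infants. With only the 8 arrays of 0 h fitted, the sex difference of the age difference did not pass for Saa1 (adjusted p = 0.079) or Cdkn1a (adjusted p = 0.055). Other p53 targets were Ccng1 and Btg2: Ccng1 lay at 1.49 to 1.91 in adults and rose 3.06-fold with age, and Btg2 fell 5.03-fold. The part of clock time and of the acute phase in the adult sex differences at 0 h was not tested. The adult males and females at 24 h and 48 h are separate mice.

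There the sex-biased genes Cyp3a44, Elovl3 and Gstp1 differed between adult males and females in the same direction as at 0 h. Other members of those lists are not given for these times. The adult male minus female difference was -8.77 at 24 h and -8.29 at 48 h for Cyp3a44 (-8.64 at 0 h). For Elovl3 it was 5.39 and 5.70 (6.12 at 0 h) and for Gstp1 3.03 and 2.73 (3.06 at 0 h). Asns and Alas2 kept a male excess at both times, 3.01 and 4.31 for Asns, and 2.73 and 2.67 for Alas2. The differences seen at 0 h for Saa1, Cdkn1a, Arntl and Wee1 were not kept: Saa1 was at 0.13 and 0.26, Cdkn1a at 0.23 and 0.05, Arntl at 0.06 and -0.88, and Wee1 at 0.37 and 0.38. Other clock and acute phase genes, apart from Dbp and Usp2, are not given for these times. Dbp and Usp2 had the opposite sign, at 0.21 and 1.88 for Dbp and 0.27 and 1.39 for Usp2. Cyp7a1 was at -0.66 and 0.43 against -3.18 at 0 h. At 24 h and 48 h adult males and females lay on different slides, so these values carry the slide with the sex.

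The age difference at the later labels, between other mice that were all irradiated, is given beside that at 0 h. The median of the major urinary proteins was 12.4, 11.4 and 11.1 at 0, 24 and 48 h, that of conjugation enzymes 1.62, 1.54 and 1.13, and that of G2 and M phase genes -3.39, -4.46 and -4.90. Some other hepatocyte lists lay nearer to 0 at the later labels, at 1.15, 0.39 and 0.46 for the urea cycle and 1.02, 0.55 and 0.45 for amino acid breakdown. Periportal genes lay at 0.95, 0.42 and 0.10 and liver transporters at 0.72, 0.51 and 0.32. Others did not, with liver transcription factors at 0.50, 0.71 and 0.63, acute phase genes at 0.36, 0.76 and 0.64 and cholesterol synthesis at 0.90, 0.81 and 0.92. The erythroid, B cell and granulocyte lists differed most between the labels among the lists given here. The erythroid median was -3.64, -1.19 and 0.04, that of B cell genes -2.81, 0.10 and -0.05 and that of granulocyte genes -5.04, -3.91 and -1.86, with all genes at 0.27, 0.24 and 0.14. With genes not well above background at the dimmer age set at their bound the erythroid medians were -3.01, 0.00 and 0.00. The B cell medians were then -1.93, 0.00 and 0.00 and the granulocyte medians -4.09, -3.05 and -1.43. Afp differed by -9.90, -8.54 and -9.38 and Marco by -4.49, -4.11 and -3.61. These are side-by-side values and no test of a change with time.

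**Figure D5:**
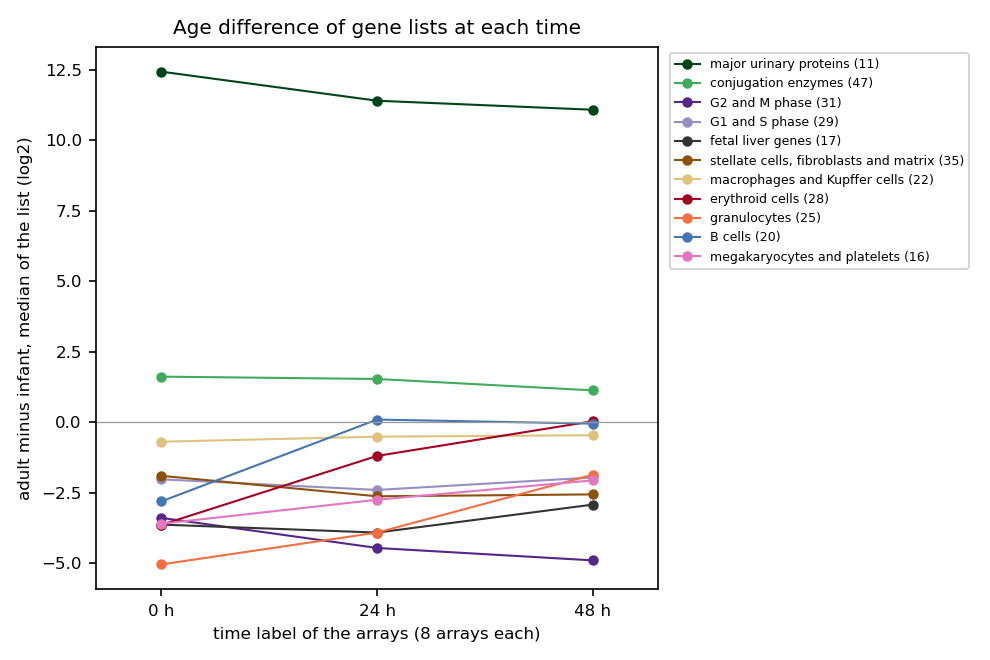
Median adult minus infant difference (log2) of 11 gene lists on the arrays labelled 0 h, 24 h and 48 h, 8 arrays each, with lines joining the same list across different mice. The erythroid, B cell and granulocyte medians lie closer to 0 at 48 h than at 0 h, and that of G2 and M phase genes lies farther from 0. The median of the major urinary proteins is 12.4 at 0 h and 11.1 at 48 h.

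A few bright genes did not differ on average between the ages. Tpt1, a translationally controlled protein present in nearly all cells, lay at 8.98 to 9.25 in infants and 8.91 to 9.28 in adults (difference 0.00, and -0.28 with quantile normalization). Mpc1, a subunit of the mitochondrial pyruvate carrier, averaged the same at both ages only across the sexes: it fell by 0.34 in males (adjusted p = 0.031) and rose by 0.33 in females (adjusted p = 0.036), to 6.64 and 6.91 in adult males and 7.69 and 7.73 in adult females. With quantile normalization its average difference was -0.35 and passed (adjusted p = 0.00065).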

How the data were processed

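Liver RNA of B6C3F1 mice was hybridised to 1-colour Agilent arrays, 1 RNA per array. The deposited intensity values are Feature Extraction processed signals, background-subtracted and detrended within each array, made with version 10.5.1.1 of the software per the file headers (the submitters' processing notes name 11.5.1), and the deposited software marks per spot are other (0 or 1) values. The authors' deposited log2 value table correlated with the scanner values at 0.976 to 0.990 on the differences between arrays and served as an alternative. From 59305 non-control spots 55587 probes were kept after 94 with missing values were dropped, and 0 were saturated. RefSeq-style accessions were carried by 29753 probes, and for 27987 of these (94.1%) a current symbol was found; other genes keep the file's name. Log2 signal minus each array's 75th percentile was fitted in limma 3.58.1 (R 4.3.3) over all 24 arrays with 12 means of age, time and sex, and age contrasts were averaged over the sexes. A gene was tested through its brightest probe if well above background on at least 4 arrays. Benjamini-Hochberg adjusted p-values over 23115 genes were read at 0.05. On simulated data 69, 53 and 78 of 23115 genes were changed by 1.5-fold, 2-fold and 4-fold, and 55.1%, 71.7% and 94.9% of them were recovered. Far more genes passed in the real data (69.9%), so these rates do not carry over to it. Genes named were the 12 largest rises and falls, each list's defining genes, its 5 largest changes each way and members against its majority, 10 each way for the sex contrasts, and the 8 least different bright genes; any other gene was chosen after its values were seen. Members, lists and tests were chosen with earlier results of these data known. Replicate numbers did not pair the samples. Some genes of the lists are not reported here by name. Promoters are RefSeq sequences of GRCm38.p6.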

Additional observations from a re-analysis of the deposited data

Results flagged for a closer look

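Among 296 groups of 4 arrays, 11 held 1 array far from the other 3, where chance alone marks about 1 group in 20. Infant male 1 accounted for 5 of them, with levels of 5.0 for Cyp2f2, 0.63 for Cyp2c38, 2.81 for Mgst2, 3.76 for Cdc20 and 7.10 for B2m. Infant male 2 stood apart for Cd79b at 2.95. Infant female 2 stood apart for Tnni2 at 3.51, Pnliprp1 at 4.23 and Cdkn1a at 2.51. Adult male 1 stood apart for Lcn2 at 8.84 and for S100a8 at 0.10.

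The age difference (adult minus infant, log2) differed between the sexes for 3082 genes by the limma interaction term, and among those described the male minus female value was as follows. For Cyp2b13, Sult2a1, Sult2a2, Sult3a1, Hao2, Slc22a27, Cux2, A1bg, Slc22a26, Elovl3 and Cyp4a12a 1 or more of the 4 groups was not well above background on any array, so the value there depends on the background and is no measured size. In the Cyp2b family it was -10.90 for Cyp2b13, -7.73 for Cyp2b9 and -5.16 for Cyp2b10. In the Cyp3a and Cyp4a families it was -8.57 for Cyp3a44, -3.31 for Cyp3a41b, -7.72 for Cyp4a14 and 5.80 for Cyp4a12a. Sulfotransferases gave -9.00 for Sult2a1, -11.25 for Sult2a2 and -8.71 for Sult3a1. The other female-biased genes gave -6.76 for Hao2, -7.19 for Slc22a27, -5.30 for Cux2, -4.13 for Prom1, -6.25 for A1bg and -7.53 for Slc22a26. The other male-biased genes gave 5.84 for Elovl3, 3.34 for Cyp7b1, 3.69 for Hsd3b5, 4.35 for C6 and 3.14 for Gstp1. Clock genes gave -4.66 for Dbp, 3.08 for Arntl, -4.34 for Usp2 and -2.97 for Wee1. Saa1 gave 4.98, Cdkn1a 5.10, Asns 4.06, Alas2 2.27, Cyp7a1 -3.90 and Hamp2 -5.94. With only the 8 arrays of 0 h fitted, the difference between the sexes did not pass for Saa1 (adjusted p = 0.079), Cdkn1a (0.055), Hsd3b5 (0.062) and Cyp7a1 (0.056).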

How the results depend on the processing

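The age difference at 0 h passed for 16166 of 23115 genes. Alternatives other than slide as a fixed term gave 12177 of 15910 genes (filter on all 24 arrays) to 16694 of 36759 (no filter). These ends count over different numbers of genes. Slide as a fixed term, which was chosen after seeing the data, gave 10061 of 23115. Of the 16166, 14656 kept their direction with that term and 9187 were still called. Leaving out 1 array gave 15279 to 15516 for age, 2946 to 5294 for the adult sex difference, 14 to 1685 for the infant sex difference and 1556 to 2816 for the sex difference of the age difference. The adult sex count of 5189 became 8777 with normexp, 3259 with median scaling and 1726 with only the 8 arrays of 0 h. The infant sex count of 1291 became 4845 with normexp, 256 with median scaling, 423 with no filter, 1984 with a filter on all 24 arrays, 5 with only the 8 arrays and 2889 with the replicate number as a block. The count of 3082 became 1231 with median scaling, 1953 of 36759 genes with no filter and 479 with only the 8 arrays. The replicate block gave 16455 for age, although same-numbered arrays correlated at only -0.048 to 0.280 in males and -0.204 to 0.161 in females. Among 4277 alternative values of named genes 4198 kept direction and side of the threshold, 51 lost the call, 24 gained it and 4 changed sign: Cpt1a at 0.30 and Wee1 at 2.95 with slide as a fixed term, Wee1 at 0.19 with slide as a random block, and Tpt1 at -0.28 with quantile normalization. The cause was not tested. The slide term planned beside 12 means was not run, since each mean lies on 1 slide. The signal over background limits genes near background to bounds, and 4 arrays per age limit the precision.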
